A study of Mus musculus with 5 samples.

Results

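The genes described here are 10 transcription regulators of the CREB, REST and PGC-1 systems, chosen by name: Ppargc1a, Ppargc1b, Creb1, Crem, Crebbp, Ep300, Rest, Sp1, Nrf1 and Tfam. They were matched without regard to case to the gene symbols of the array platform, which gave 15 of the 26423 probes and 10 of the 17742 genes with a symbol. Crem had 4 probes, Nrf1 had 3 and each of the other genes had 1. Nrf1 is also an older name of another gene, Nfe2l1, which has a probe under its own symbol on this array. Which of the genes the 3 Nrf1 probes were designed for was not tested, because probe sequences were not used here.

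Striatal RNA came from 5 male FVB mice aged 12 months, each measured on a single-colour array as linear intensities. All 5 mice carried an HD (Huntington's disease) transgene coding for GFP joined to human HTT exon 1 carrying 84 CAG repeats, driven by a human ubiquitin promoter. The 2 mice called HD (GHD in the labels) had this transgene alone. The 3 mice called HD_miR196a (D-Tg in the labels) came from a cross to a second transgenic line, in which a human ubiquitin promoter drives a precursor of the microRNA miR-196a. A ubiquitin promoter is not specific to neurons. Per the labels, motor function was improved in the HD_miR196a mice and weak in the HD mice. Mice without the HD transgene and mice with miR-196a alone were not analysed here, so every comparison is HD_miR196a minus HD, within mice that carry the transgene.

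The microRNA added in the HD_miR196a mice is shown because its transgene is the labelled genetic difference between the groups. The line below gives its mature strand from RefSeq, which is the same at both mouse loci (GRCm38.p6, chr11:96265187-96265208 and chr15:102973365-102973386, both plus strand). The seed, bases 2 to 8, is in capitals.
mmu-miR-196a-5p: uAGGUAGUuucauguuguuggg

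CREB is a transcription factor that binds cAMP response elements and, once phosphorylated, recruits the acetyltransferases CBP and p300. REST binds RE1 elements and silences neuronal genes, and huntingtin is known to hold it in the cytoplasm of neurons. PGC-1alpha is a coactivator that raises nuclear genes of mitochondria, and its own gene is a known target of CREB. Mutant huntingtin is known to interfere with CREB, CBP and SP1 and to lower PGC-1alpha in striatal neurons, which is why these regulators are followed in this tissue.

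None of the 15 probes passed the test between the groups. Limma with Benjamini-Hochberg adjustment over all 26423 probes called 0 of the 15, against a background of 0% of all probes. At an unadjusted p under 0.05 it found 0 of the 15, against 4.16% of all probes. Trend and robust settings, run as a second variance model, also called 0 of the 15. Adjusted p-values of the 15 probes lay between 0.979 and 0.995, so they are not repeated below. With 3 and 2 mice there are 10 ways to split them, so the smallest p that an exact permutation test could reach is 0.1.

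By their brightest probe 8 of the 10 genes had a lower mean in HD_miR196a mice and 2 had a higher one, while 48.9% of all genes had a higher and 51% a lower mean. Of the 15 probes 4 were higher and 11 lower, where 49.3% of all probes were higher. The median difference of the 10 genes was -0.11 on the log2 scale, and that of all genes was -0.0042. Leaving out 1 HD mouse brought the former to -0.057 (mouse 1) or -0.063 (mouse 2), leaving out HD_miR196a mouse 1 to -0.16, and leaving out mouse 1 of both groups to -0.050. The count of 2 genes with a higher mean became 4 when HD_miR196a mouse 2 was left out, 5 when HD mouse 1 was left out, and 4 when mouse 1 of both groups was. On the deposited scale, without the scaling applied here, it became 0. There the median of all probes was also lower by a log2 difference of -0.20, and only 16.7% of all probes were higher. Groups that did not overlap were seen for Ppargc1b and Ep300, 2 of the 10 genes, against a background of 20.7% of all genes. By probe they did not overlap for 4 of the 15, against 20.3% of all probes.

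**Figure D1:**
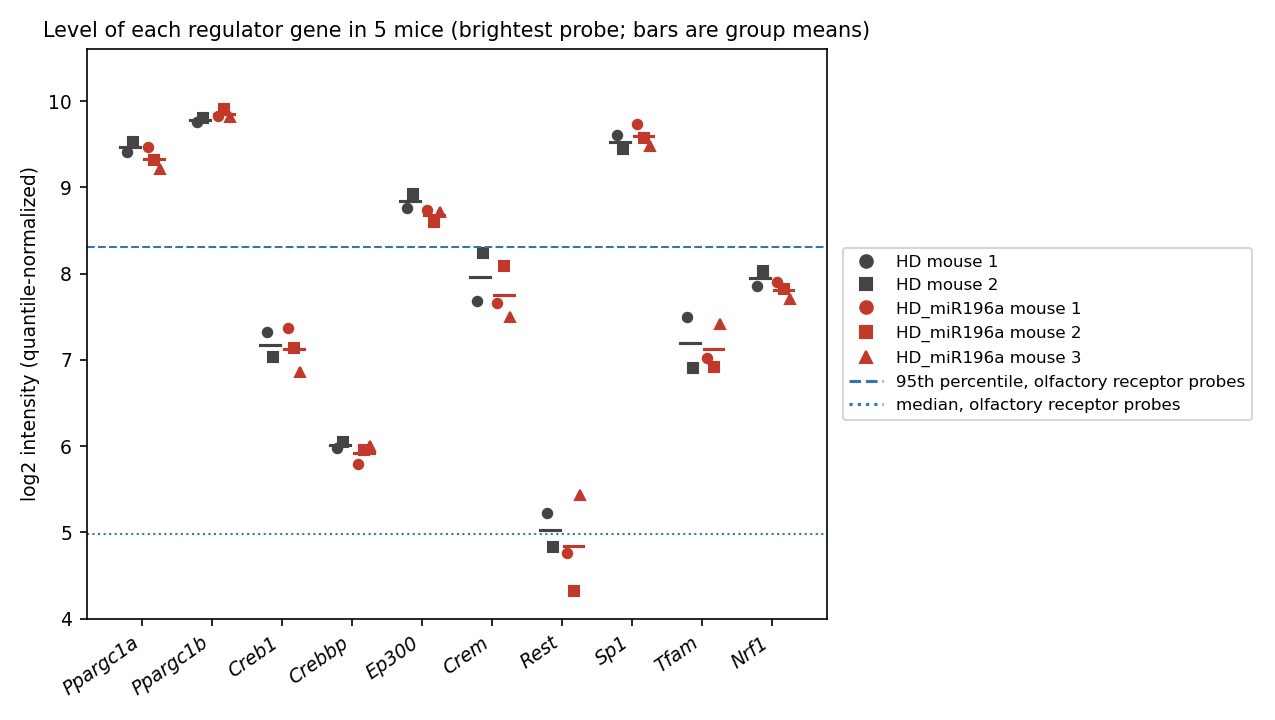
Quantile-normalized log2 intensity of the brightest probe of each of the 10 genes, with 1 point per mouse and a bar at each group mean (3 HD_miR196a mice in red, 2 HD mice in grey). Dashed and dotted lines mark the 95th percentile (8.31) and the median (4.98) of olfactory receptor probes. Only Ppargc1a, Ppargc1b, Ep300 and Sp1 lie above the dashed line in every mouse, and Rest lies around the dotted one.

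How much each probe can show depends on its signal. Background was read from probes of odorant receptors, a gene family with little expression in brain tissue, and over 543 such probes the log2 median was 4.98 and the 95th percentile 8.31. Only 4 of the 10 genes, Ppargc1a, Ppargc1b, Ep300 and Sp1, had a mean above that 95th percentile, and 2 of these 4 were higher and 2 lower in HD_miR196a mice, where 48% of all genes above that level were higher. The remaining 6 genes had mean levels below that percentile, so for them a change in the transcript may not be visible. A few olfactory receptor probes were brighter than the 4 genes as well, which lay above 97.1% (Ep300) to 99.6% (Ppargc1b) of them. The 95% interval of the difference lay within 1 on the log2 scale in either direction for 13 of the 15 probes and within 0.5 for 9, against 81.4% and 45.5% of all probes.

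Ppargc1a encodes PGC-1alpha, the coactivator of mitochondrial and antioxidant genes. In mouse order, its probe measured 9.47, 9.32 and 9.21 in HD_miR196a mice on the log2 scale and 9.41 and 9.53 in HD mice, and later values keep this order. HD_miR196a mouse 1 was above HD mouse 1, so the groups overlapped, and the lowest value was that of HD_miR196a mouse 3. The group means were 9.33 ± 0.13 (SD, n = 3) and 9.47 ± 0.09 (SD, n = 2), and the difference was -0.14 ± 0.12 (SE). Its 95% interval ran from 0.732-fold to 1.13-fold. On the deposited scale the intensities were 625, 601 and 578 against 746 and 814, which do not overlap. On that scale 85.7% of all genes had a lower mean in HD_miR196a mice, and 14 of the 15 probes did.

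A window around 1 start of Ppargc1a is printed because CREB, whose genes are measured on the same arrays, is known to act on this gene. The window spans 250 bases before to 50 after that start (RefSeq, GRCm38.p6, chr5:51567676-51567975, minus strand). No other window of the gene was searched, and whether this one holds the site through which CREB acts was not tested. Capitals mark the 1 match of the window to the cAMP response element half-site TGACG, on the reverse strand at positions -49 to -45.
Ppargc1a: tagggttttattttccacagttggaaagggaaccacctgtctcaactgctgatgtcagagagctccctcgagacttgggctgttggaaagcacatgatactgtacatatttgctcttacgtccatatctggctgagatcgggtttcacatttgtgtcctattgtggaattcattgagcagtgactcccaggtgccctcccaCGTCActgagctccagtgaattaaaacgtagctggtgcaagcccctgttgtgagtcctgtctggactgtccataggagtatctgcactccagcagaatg
A half-site on either strand occurs in 20.8% of 32851 such windows, and the full element TGACGTCA, which contains it, occurs in 1.79% and not in this window.

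Ppargc1b encodes PGC-1beta, a related coactivator of mitochondrial genes. It measured 9.82, 9.91 and 9.81 in HD_miR196a mice and 9.75 and 9.80 in HD mice on the log2 scale. Every HD_miR196a mouse was above both HD mice, although the gap between mouse 3 of the former and mouse 2 of the latter was small. All 5 values lay within 0.161 of each other. The difference was 0.07 ± 0.09 (SE), with an interval from 0.891-fold to 1.24-fold, the narrowest among the 15 probes on the log2 scale. With median centring in place of quantile normalization the difference was 0.0068 ± 0.10 (SE), where the median of all probes was -0.028. Without scaling it was -0.17, where the median of all probes was -0.20.

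Creb1 encodes CREB itself. Its probe measured 7.37, 7.14 and 6.86 in HD_miR196a mice and 7.32 and 7.03 in HD mice. The highest and the lowest mouse both belonged to HD_miR196a, and the HD mice lay between them. The difference was -0.05 ± 0.19 (SE), with an interval from 0.680-fold to 1.37-fold. This level was above 85.1% of olfactory receptor probes but below their 95th percentile.

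Crem encodes activators and repressors of the CREB family from a single gene, among them the inducible repressor ICER. Its brightest probe measured 7.66, 8.09 and 7.50 in HD_miR196a mice and 7.68 and 8.24 in HD mice. Mouse 2 of each group was high and the other 3 mice were low, so the spread within groups exceeded the difference of -0.21 ± 0.26 (SE). Its interval ran from 0.540-fold to 1.38-fold. The second probe differed by -0.07 ± 0.14 and the fourth, at a mean of 3.55 and below the olfactory receptor median, by -0.19 ± 0.27.

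The third Crem probe had the largest difference of the 15, -0.82 ± 0.78 (SE), and rested on 1 mouse. It measured 5.63, 3.26 and 5.36 in HD_miR196a mice and 5.66 and 5.48 in HD mice. HD_miR196a mouse 2 was low and the other 4 mice were close together, and without that mouse the difference was -0.08. All 4 Crem probes had a lower mean in HD_miR196a mice, none had groups that did not overlap, and which Crem transcripts each probe detects was not tested.

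**Figure D2:**
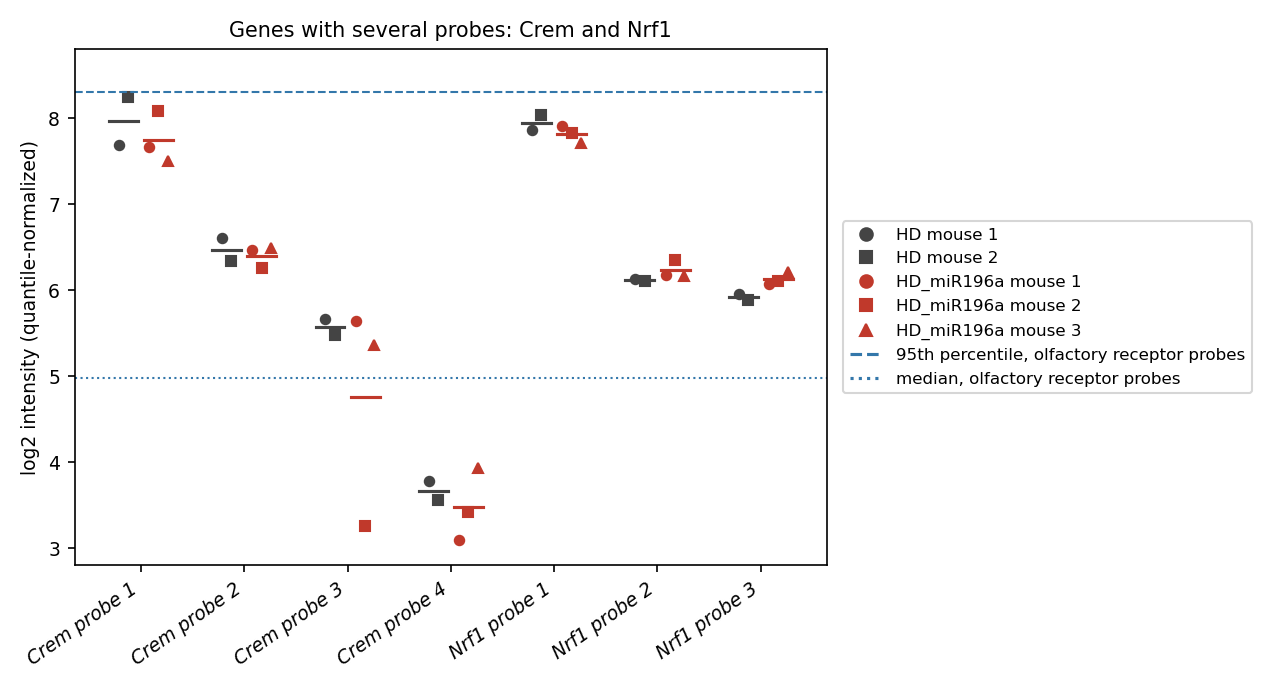
Quantile-normalized log2 intensity of the 4 Crem and 3 Nrf1 probes, with 1 point per mouse and a bar at each group mean (HD_miR196a in red, HD in grey). Dashed and dotted lines mark the 95th percentile and the median of olfactory receptor probes. The third Crem probe was low in HD_miR196a mouse 2 only (3.26), and the Nrf1 probes differ in sign.

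Crebbp and Ep300 encode CBP and p300, the acetyltransferases that CREB recruits. Ep300 measured 8.74, 8.60 and 8.72 in HD_miR196a mice and 8.75 and 8.93 in HD mice. Every HD_miR196a mouse was below both HD mice, by little in the case of HD_miR196a mouse 1 and HD mouse 1. The difference was -0.16 ± 0.11 (SE), with an interval from 0.739-fold to 1.09-fold. Groups that do not overlap, with HD_miR196a lower, occurred at 10.7% of all genes.

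Crebbp measured 5.80, 5.96 and 6.00 in HD_miR196a mice and 5.98 and 6.04 in HD mice. HD_miR196a mouse 1 was lowest and HD mouse 2 highest, with HD_miR196a mouse 3 between the HD mice. The difference was -0.09 ± 0.11 (SE), with an interval from 0.773-fold to 1.14-fold. The level was above only 66.9% of olfactory receptor probes, so it is a weaker measurement of its gene than that of Ep300.

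Rest encodes the repressor of neuronal genes. It measured 4.76, 4.32 and 5.43 in HD_miR196a mice and 5.22 and 4.83 in HD mice, around the olfactory receptor median of 4.98. HD_miR196a mice held both the lowest and the highest value, and the 5 values spanned 1.11. The difference was -0.19 ± 0.36 (SE), with an interval from 0.458-fold to 1.69-fold. At this signal a change of Rest mRNA was not detectable, and the probe does not show whether the transcript is present. The location of the REST protein was not measured.

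Sp1 encodes a factor that binds GC boxes. It measured 9.73, 9.57 and 9.48 in HD_miR196a mice and 9.60 and 9.45 in HD mice. The groups overlapped, with HD_miR196a mouse 1 highest and HD mouse 2 lowest. The difference was 0.07 ± 0.12 (SE), with an interval from 0.843-fold to 1.31-fold. With median centring the difference was 0.016 ± 0.12 (SE), where the median of all probes was -0.028. Without scaling it was -0.16, where the median of all probes was -0.20.

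Nrf1 encodes nuclear respiratory factor 1, a regulator of nuclear genes of mitochondria that PGC-1 coactivators bind. Its brightest probe measured 7.91, 7.82 and 7.71 in HD_miR196a mice and 7.86 and 8.03 in HD mice, and differed by -0.14 ± 0.12 (SE). The groups overlapped, with HD mouse 2 highest. The dimmer probes went the other way. The second measured 6.18, 6.35 and 6.16 against 6.13 and 6.11, a difference of 0.11 ± 0.10. The third measured 6.07, 6.10 and 6.21 against 5.96 and 5.89, a difference of 0.21 ± 0.10 (limma, adjusted p = 0.979). On both of these every HD_miR196a mouse was above both HD mice, against 9.96% of all probes, at levels above 69.6% and 68.0% of olfactory receptor probes. The probes of this symbol therefore gave no common direction, and the mean over the 3 probes differed by 0.06. The probe named Nfe2l1 differed by -0.04 ± 0.10.

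Tfam encodes the factor that packages and transcribes mitochondrial DNA. It measured 7.02, 6.92 and 7.42 in HD_miR196a mice and 7.50 and 6.90 in HD mice. HD_miR196a mouse 3 and HD mouse 1 were high and the other 3 mice low, so the groups overlapped. The difference was -0.08 ± 0.25 (SE), with an interval from 0.600-fold to 1.49-fold, and it was -0.38 without HD mouse 2 and 0.22 without HD mouse 1.

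The windows around the starts of Tfam and Sp1 are printed because SP1 binds GC boxes and CREB binds the half-site, and both proteins are encoded by genes measured here. Tfam (RefSeq, GRCm38.p6, chr10:71237995-71238294, minus strand) has 2 GC boxes, GGGCGG on the reverse strand at positions -130 to -125 and -108 to -103, and 1 match at -47 to -40 to CCGGAAGT, an ETS element of the kind that GABP binds. Sp1 (chr15:102406066-102406365, plus strand) has 4 GC boxes at -210 to -205, -197 to -192, -81 to -76 and -62 to -57, and 1 half-site TGACG on the reverse strand at 22 to 26. Capitals mark these matches.
Tfam: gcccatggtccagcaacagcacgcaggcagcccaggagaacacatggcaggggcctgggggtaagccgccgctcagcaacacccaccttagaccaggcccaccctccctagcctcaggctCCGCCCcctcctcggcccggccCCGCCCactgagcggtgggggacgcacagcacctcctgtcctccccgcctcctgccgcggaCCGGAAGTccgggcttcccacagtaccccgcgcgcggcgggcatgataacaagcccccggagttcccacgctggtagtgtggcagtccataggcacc
Sp1: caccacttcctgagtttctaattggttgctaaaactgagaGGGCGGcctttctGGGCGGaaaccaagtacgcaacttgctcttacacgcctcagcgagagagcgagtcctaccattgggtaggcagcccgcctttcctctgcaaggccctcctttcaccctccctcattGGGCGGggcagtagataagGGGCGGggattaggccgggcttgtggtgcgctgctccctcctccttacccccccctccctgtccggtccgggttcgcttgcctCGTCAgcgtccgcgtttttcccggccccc
On either strand a GC box occurs in 35.7% of all windows and CCGGAAGT in 3.89%. Windows of 7 of the 10 genes were searched, 8 windows in all. Ppargc1b, Crem and Rest were not searched, so the counts that follow do not cover them. A GC box was found for 6 of the 7 genes and a TGACG half-site for 2, while TGACGTCA was found in 0 of the 8 windows. The counts for the GC box and the half-site are by gene, whereas the shares of all windows are by window. Nrf1 had 2 windows, and its second held no GC box.

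**Figure D3:**
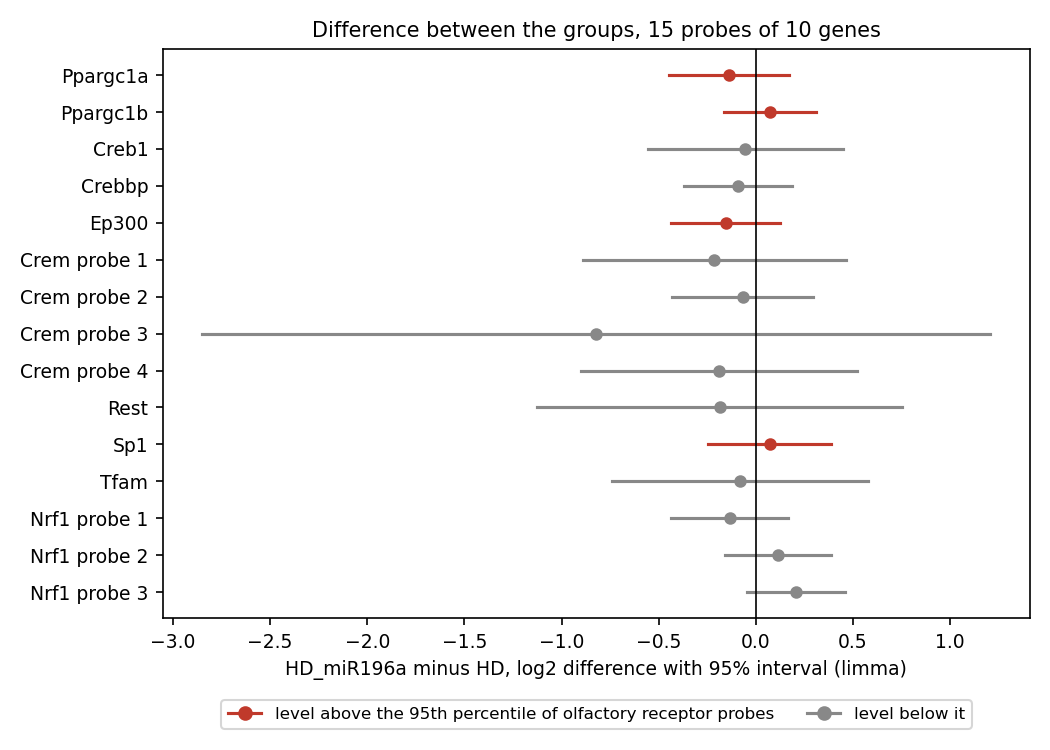
Difference between the groups on the log2 scale (HD_miR196a minus HD) with its 95% interval from limma for the 15 probes, in red where the mean level was above the 95th percentile of olfactory receptor probes. Every interval includes 0, and those of Rest and the third Crem probe reach beyond 1.

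The genes around these regulators were described with 9 lists covering their partners, upstream enzymes and targets, by the brightest probe of each gene. Together they held 139 measured genes besides the 10, of which limma called 0 over all probes and 7 had an unadjusted p under 0.05. That background is 0% and 3.71% of all genes. The adjusted p-value of every gene named from these lists was 0.979. List medians are small beside what scaling does: without scaling all 9 were below 0, from -0.30 to -0.15, where the median of all probes was -0.20.

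Genes upstream of CREB include kinases of the cAMP pathway. Of 13 measured, 5 had a higher and 8 a lower mean in HD_miR196a mice, with a median difference of -0.01 that became -0.031 when HD mouse 1 was left out and 0.024 when HD mouse 2 was. Prkar1b, a regulatory subunit of protein kinase A, measured 11.15, 12.18 and 10.48 in HD_miR196a mice and 12.86 and 13.23 in HD mice. All 3 HD_miR196a mice were below both HD mice and differed widely among themselves. Its difference of -1.77 ± 0.53 (SE) did not pass the test (limma, adjusted p = 0.979), and it ranged from -2.23 to -1.37 over the alternatives tried. Of the 13 genes, 1 had every HD_miR196a mouse below both HD mice and 1 had every one above. Those shares of all genes are 10.7% and 10%. Ppp1r1b, which encodes the phosphatase inhibitor DARPP-32, measured 11.66 ± 0.10 (SD, n = 3) against 11.17 ± 0.31 (SD, n = 2). The calmodulin-dependent kinase gene Camk4 showed differences of 0.16 ± 0.16 on the brighter and 0.37 ± 0.23 on the dimmer of its probes.

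The CREB family and its coactivators had 7 of 12 genes higher and 5 lower, with a median of 0.05 that ranged from 0.022 without HD_miR196a mouse 1 to 0.078 without HD_miR196a mouse 3. Atf1, a close relative of CREB, measured 9.35, 9.28 and 9.19 in HD_miR196a mice and 9.50 and 9.61 in HD mice. The groups did not overlap, and the difference was -0.28 ± 0.10 (SE; limma, adjusted p = 0.979). Of the 12 genes, the groups did not overlap with HD_miR196a lower for 1 and higher for 1, against 10.7% and 10% of all genes. The CREB-regulated coactivator gene Crtc2 differed by 0.16 ± 0.12 and the nuclear receptor coactivator gene Ncoa1 by -0.16 ± 0.13.

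Targets of CREB had 8 of 18 genes higher and 10 lower, with a median of -0.09. Penk, the enkephalin precursor, measured 15.12 ± 0.11 (SD, n = 3) against 14.74 ± 0.02 (SD, n = 2). Fos, an activity-induced transcription factor, measured 9.06, 9.34 and 10.28 in HD_miR196a mice and 9.83 and 10.91 in HD mice, so the spread within each group was as wide as the difference of -0.81 ± 0.50 (SE). The neuropeptide gene Crh differed by 0.80 ± 0.51, by 0.067 without HD mouse 2 and by 1.53 without HD mouse 1. Fos likewise differed by -0.26 without HD mouse 2 and by -1.35 without HD mouse 1. The list mean was 10.22, 10.53 and 10.67 in HD_miR196a mice and 10.30 and 10.78 in HD mice. The list median was -0.48 without HD mouse 1 and 0.09 without HD mouse 2. It was -0.34 without mouse 1 of both groups. Cortical neuron markers were lowest in mouse 1 of each group, as the list mean was: the summed linear level of 7 measured markers was 11546, 32719 and 24987 in HD_miR196a mice and 10843 and 34854 in HD mice. Their part in the values of CREB targets was not tested.

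Proteins that REST recruits or that act on its location had 8 of 14 genes higher and 6 lower, with a median of 0.05. That median was -0.025 without HD mouse 1, -0.0052 without HD_miR196a mouse 2, 0.0074 without HD_miR196a mouse 3 and 0.11 without HD mouse 2. Sin3b, a corepressor scaffold, showed differences of 0.24 ± 0.13 (SE) on the brighter and 0.02 ± 0.11 on the dimmer of its probes. The histone deacetylase gene Hdac2 differed by -0.17 ± 0.11 and the histone methyltransferase gene Ehmt2 by 0.14 ± 0.10. For Sin3b, Hdac2 and Ehmt2, picked by their small p, the groups did not overlap on the brightest probe. Among all 14 genes of the list, every HD_miR196a mouse was above both HD mice for 2 and below both for 3. Those shares of all genes were 10% and 10.7%. Of the 3 lower ones, Rcor1 and Rcor3 were not above the olfactory receptor 95th percentile, and these were named after their values were seen. Neuronal genes with RE1 elements, the targets of REST, had 13 of 20 genes higher and 7 lower, with a median of 0.03, which ranged from -0.012 to 0.079 when any 1 mouse was left out. In 3 of them every HD_miR196a mouse was above both HD mice and in 1 every one was below, against 10% and 10.7% of all genes. Among the higher ones Gad1, and the lower one, Stx1a, were not above the olfactory receptor 95th percentile. Both were named after their values were seen. Celsr3, a cadherin of axon guidance, measured 10.73 ± 0.10 (SD, n = 3) against 10.45 ± 0.08 (SD, n = 2), the neurofilament gene Nefm differed by 0.30 ± 0.18 and the complexin gene Cplx1 by 0.12 ± 0.10.

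Partners of PGC-1 had 10 of 19 genes higher and 9 lower, with a median of 0.02, which lay between -0.11 and -0.016 when any 1 mouse was left out. In 5 of the 19 every HD_miR196a mouse was below both HD mice, against 10.7% of all genes, and in 0 above, against 10%. Of these 5 only Gabpa was above the olfactory receptor 95th percentile, while Foxo3, Ppard, Sirt1 and Ppara, named after their values were seen, were not. The oestrogen-related receptor gene Esrra differed by 0.15 ± 0.13 (SE), Gabpa, a subunit of GABP, by -0.09 ± 0.09 and Prkaa1, the catalytic alpha-1 subunit of AMP kinase, by -0.16 ± 0.18, which was -0.016 without HD_miR196a mouse 2. Targets of PGC-1alpha, mostly genes of mitochondria and antioxidant defence, had 8 of 24 genes higher and 16 lower, with a median of -0.05. That median was -0.015 without HD_miR196a mouse 2 and -0.023 without HD mouse 1. The groups did not overlap with HD_miR196a lower for 7 of the 24 genes, where 10.7% of all genes did so, and with HD_miR196a higher for 1, against 10%.

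Ndufs1, a subunit of respiratory complex I, was among those 7 and measured 11.19, 11.17 and 11.17 in HD_miR196a mice and 11.34 and 11.33 in HD mice. The mice of each group were nearly equal, and the difference was -0.16 ± 0.08 (SE). Acadm, a fatty acid oxidation enzyme, measured 11.75 ± 0.03 (SD, n = 3) against 11.94 ± 0.02 (SD, n = 2). Pdk4, a kinase that restrains pyruvate oxidation, differed by -0.18 ± 0.11.

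Genes that maintain and transcribe mitochondrial DNA beside Tfam had 7 of 11 genes higher and 4 lower, with a median of 0.06, which was -0.062 without HD mouse 2 and 0.17 without HD mouse 1. The transcription elongation factor gene Tefm differed by 0.15 ± 0.11 (SE), the mitochondrial protease gene Lonp1 by 0.11 ± 0.09 and the polymerase gene Polg by 0.10 ± 0.13. Relatives of SP1 and general transcription factors, mostly of the TFIID complex, had 2 of 10 genes higher and 8 lower, with a median of -0.07. It was -0.16 without HD_miR196a mouse 3 and -0.025 without HD_miR196a mouse 2. Sp3 measured 9.48 ± 0.04 (SD, n = 3) against 9.69 ± 0.20 (SD, n = 2) and Sp4 9.98 ± 0.09 against 10.12 ± 0.06. In both genes every HD_miR196a mouse was below both HD mice. That held for 2 of the 10 genes, against 10.7% of all genes, and the reverse for 0, against 10%. Klf9 differed by 0.15 ± 0.16. The Sp3 difference of -0.21 was -0.063 without HD mouse 2.

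**Figure D4:**
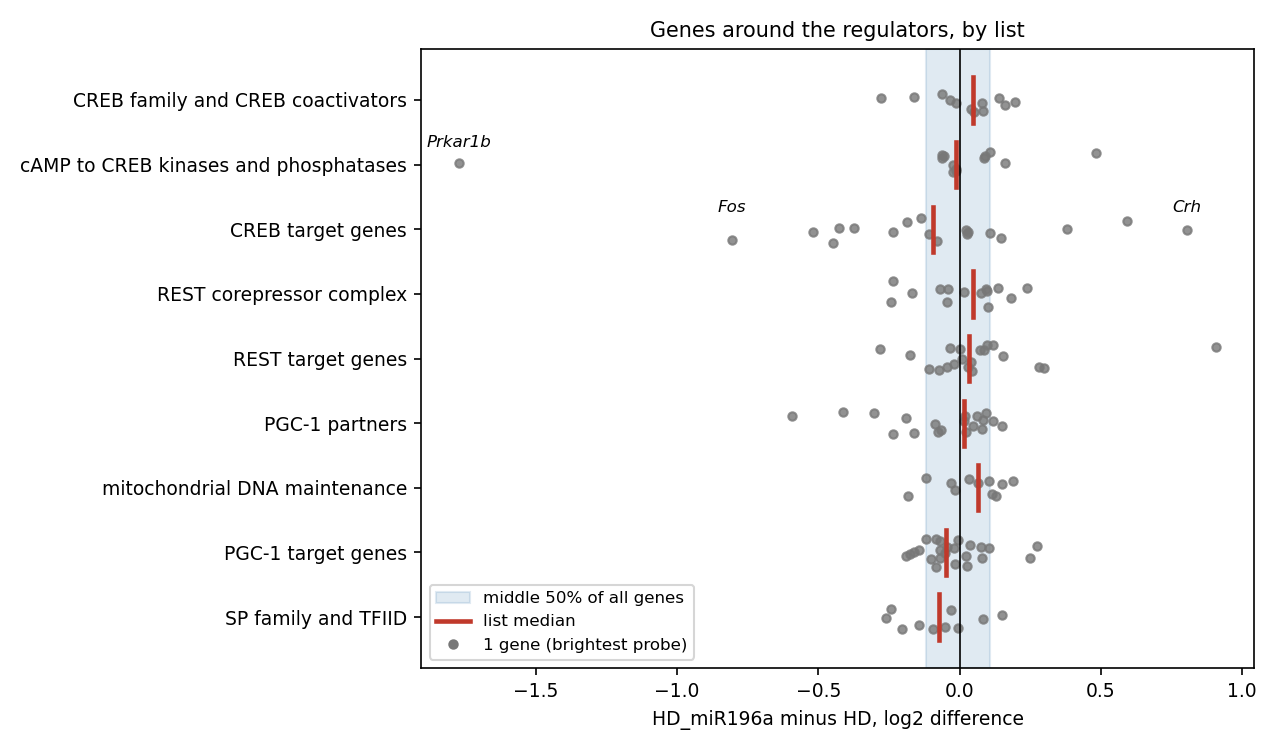
Difference between the groups on the log2 scale (HD_miR196a minus HD) of each gene in the 9 lists around the regulators, with 1 grey point per gene and a red line at the list median. The shaded band holds the middle 50% of all genes, and every list median lies inside it, from -0.09 for CREB targets to 0.06 for mitochondrial DNA maintenance.

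Markers of medium spiny neurons, the main striatal neuron type, were all above the olfactory receptor 95th percentile (8 of 8 measured) in this tissue labelled as striatum. Their summed linear level was 74730 to 81288 in HD_miR196a mice and 58173 to 62190 in HD mice. All 8 had a higher mean in HD_miR196a mice, with a median difference of 0.47. In 7 of them each HD_miR196a mouse exceeded both HD mice, a pattern found at 10% of all genes. Limma called 0 of the 8, against 0% of all genes. Ppp1r1b and Penk are themselves such markers. Of 6 measured oligodendrocyte markers 6 had a higher mean in HD_miR196a mice, with summed levels of 40784 to 52486 against 33812 to 41568. Of 5 astrocyte markers 3 were higher and 2 lower, with a median difference of 0.014. Slc1a3 was at the floor in HD mouse 1, which lowers that mouse's sum, and summed levels were 60500 to 68448 against 53568 to 58164. Summed levels of 5 choroid plexus and ependyma markers were 1863 to 2767 in HD_miR196a mice and 1274 to 1418 in HD mice, with a median difference of 0.59, 3 of the 5 higher, and only 2 above the olfactory receptor 95th percentile. Of 5 microglia markers 3 were higher and 2 lower, with summed levels of 11199 to 12702 in HD_miR196a mice against 12343 to 13545 in HD mice. Median differences were 0.057 for microglia, -0.015 for 5 endothelium markers and 0.044 for 3 pan-neuronal markers. The part of the markers of any cell type in the values above was not tested. In bulk tissue, fewer cells of a type and less RNA per cell cannot be told apart. Deposited medians ranged from 160.0 to 185.6 between mice, and the authors combined 2 technical repeats per mouse. The labels number the mice separately, and no pair of arrays shared more than 1 identical value.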

How the data were processed

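The deposited values are linear Cy5 intensities, 1 per probe and mouse for 26423 probes, in which the authors combined 2 technical repeats per mouse, per the labels. Values slightly below 0 show that background had been subtracted. The sources used here give no scanner, software or scaling. Values were quantile-normalized, floored at 1 and log2-transformed, and each probe was tested two-sided in R 4.3.3 by limma 3.58.1, using lmFit followed by eBayes, with 0.05 as the limit of the Benjamini-Hochberg adjusted p across the whole array. Precision is limited by the number of arrays.

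Platform symbols were matched to RefSeq names of GRCm38.p6, 18213 probes directly, 2126 through a synonym and 38 not, and 6046 probes had no symbol. The named genes are all 10 regulators with every probe and, from each list, the 3 genes with the smallest p above the 95th percentile of olfactory receptor probes. Regulators and lists were chosen with earlier results of these data known. No genes were ranked by likeness across mice, since 5 mice are too few. Alternatives were median centring, no scaling, a pseudocount of 16, array weights, filters on dim probes, trend and robust variance estimates, the mouse number as a block, the average over probes of 1 gene, and each mouse left out. Leaving out mouse 1 of both groups, which had the lowest cortical markers, was added after seeing the data.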

Additional observations from a re-analysis of the deposited data

How the results depend on the processing

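No member probe was called in any alternative. Of 198 member differences under alternatives 179 kept their sign and side of the threshold and 19 changed sign. Of 378 differences of related genes 365 kept both and 13 changed sign. Of 149 medians of the members and lists 127 moved by less than the spread between mice and 22 by more. Without scaling, where the median of all probes was -0.20, the signs of Ppargc1b (-0.17), Sp1 (-0.16) and the second Nrf1 probe (-0.045) turned. So did those of Camk4 (-0.092), Cplx1 (-0.075), Crtc2 (-0.058), Ehmt2 (-0.10), Esrra (-0.078), Klf9 (-0.071), Lonp1 (-0.13), Polg (-0.11), Sin3b (-0.0059) and Tefm (-0.063). In that setting 0 of 10 members were higher, where only 16.7% of all probes were. An unadjusted p under 0.05 was then found at 3 of the 15 probes, against 3641 of all 26423. With 1 mouse left out the difference ranged from -0.20 to 0.091 for Creb1, -0.49 to 0.066 for the first Crem probe, -0.21 to 0.070 for the second, -0.42 to 0.0030 for the fourth, -0.48 to 0.069 for Rest, -0.0049 to 0.15 for Sp1, -0.38 to 0.22 for Tfam, -0.023 to 0.34 for Camk4 and -0.0020 to 0.31 for Klf9. The number of members higher ranged from 2 to 5, called probes from 0 to 3 and probes at an unadjusted p under 0.05 from 841 to 1453. A fit without an HD mouse assumes that the lone HD mouse varies like the other group. Without mouse 1 of both groups the second Crem probe differed by 0.037, the fourth by 0.11, Rest by 0.049, Tfam by 0.27 and Esrra by -0.015, and 4 members were higher. Called probes, 0 of 26423, became 3 with the pseudocount, 1 among the upper 75% of probes and 3 with trend and robust settings. The count at an unadjusted p under 0.05, 1099 probes, became 3641 without scaling and 528 among the upper 50%, where fewer probes were tested. Other causes were not tested. With the replicate block, calls stayed at 0, and an unadjusted p under 0.05 was found at 2020 probes, among them 1 of the 15 (Rest, at -0.48, adjusted 0.601). There 3 members were higher and Creb1 turned to 0.078. Only 2 numbers are shared between the groups and nothing in the labels pairs the mice. Across probes, deviations from the group means correlated at 0.236 between the 2 mice with number 1 and at 0.17 between those with number 2, and with 2 HD mice these values are not independent. Signal near background limits Creb1, Crem, Crebbp, Rest, Tfam and Nrf1.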
